A study of Bos taurus with 6 samples.

Results

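DNA methylation in mammals is written by the DNMT enzymes and removed through the TET enzymes. DNMT1 copies methylation onto the new DNA strand after replication and is brought to hemimethylated sites by UHRF1, DNMT3A and DNMT3B methylate DNA de novo with DNMT3L as a partner that has no catalytic activity of its own, the TET dioxygenases oxidise 5-methylcytosine, and TDG cuts out the oxidised bases. DNMT3B is known for its high expression in pluripotent cells, and the balance of these enzymes is known to differ between pluripotent states. The 9 genes DNMT1, DNMT3A, DNMT3B, DNMT3L, UHRF1, TET1, TET2, TET3 and TDG were taken as the set by name, out of 19163 genes in the count table, and all 9 were matched in it.

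The cells were F7, 1 line of bovine embryonic stem cells (bESCs) derived from IVF embryos of the Holstein Friesian breed, so line and clone effects cannot be told apart from general ones. MC-F7 grew on mouse embryonic fibroblasts (MEFs) whose division had been stopped with mitomycin C, and MT-F7 grew on MEFs fixed with methanol. Both were sequenced at 15 passages with 3 libraries each, in the same medium with FGF and the Wnt inhibitor IWR1, from the cells that stayed afloat in a gelatin-coated dish meant to retain feeder cells. The paper reports a lower share of reads aligned to the bovine genome in MC-F7 than in MT-F7. It proposes that fixed feeders left less feeder contamination. Whether mouse reads entered the bovine counts of either group was not tested. The medium was renewed daily for MC-F7 and every other day for MT-F7, so the feeder and the feeding schedule cannot be told apart, and whether separate cultures lay behind the 3 libraries of each group is not stated, while the study's statistics section speaks of technical replicates without naming an assay, and p values may therefore cover technical spread only.

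Gene counts added up to 21958386 to 24933430 per library. Genes of the mitochondrial genome took 16.3% to 28.3% of the counts in MC-F7 and 17.95% to 27.9% in MT-F7, and most in each group's replicate 3. The pluripotency genes POU5F1 and NANOG were present in all libraries, at 1196 ± 329.5 and 43.5 ± 9.03 counts scaled to 1000000 per library (CPM) in MC-F7 and at 522 ± 35.6 and 10.7 ± 1.23 CPM in MT-F7 (SD, n = 3), while CDX2 and HAND1, which mark trophectoderm, and GATA4, which marks primitive endoderm, were at 0 in all 6 libraries. Among the other markers, KRT7, an epithelial keratin, and GATA2, both listed for trophectoderm, were lower in MT-F7. So was FOXA2, listed for primitive endoderm. The trophectoderm marker TFAP2A was not called (log2 fold change 0.15, edgeR adjusted p = 0.82), and the rest had too few counts to be tested. The summed trophectoderm markers (3 of 8 tested, 2 lower) were between 52.0 and 78.4 CPM in MC-F7 and between 7.43 and 8.25 CPM in MT-F7, mostly KRT7. The primitive endoderm markers (1 of 6 tested, FOXA2, lower) had 5.45 ± 0.679 and 0.855 ± 0.298 CPM, and the part of these genes in the results on the enzymes was not tested. Of 9 pluripotency factors, 7 were tested and 5 (71.4%) were lower in MT-F7, and SOX2 and LIN28B were not analysed here. Of 12 fibroblast markers, 11 were tested, 4 (36.4%) were higher and none was lower. Of all tested genes, 11.3% were called lower and 11.9% were called higher in MT-F7. The summed fibroblast markers were between 326 and 389 CPM in MC-F7 and between 493 and 536 CPM in MT-F7. The largest part was COL1A1 (205 ± 31.4 and 268 ± 15.6 CPM), which was not called (edgeR adjusted p = 0.094). The summed pluripotency factors were between 959 and 1594 CPM in MC-F7 and between 594 and 653 CPM in MT-F7, mostly POU5F1. Each sum thus follows mainly 1 gene and not its whole list. In such bulk RNA fewer cells of a type and less RNA per cell cannot be told apart.

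The expression of the enzymes that methylate DNA differed between MC-F7 and MT-F7 in opposite directions. UHRF1 and DNMT1, which serve maintenance methylation, were higher in MT-F7, and the de novo enzyme DNMT3B was lower. The de novo enzyme DNMT3A and the demethylation genes TET1, TET2, TET3 and TDG did not pass the test, and DNMT3L was too low for it. Thus 3 of the 8 tested enzymes (37.5%) had an adjusted p under 0.05 in edgeR's quasi-likelihood test, where 23.2% of all 13001 tested genes did. In the set 2 were higher and 1 was lower, against 11.9% of all tested genes that were higher and 11.3% that were lower. The same 3 were the tested enzymes whose 3 MT-F7 values all lay on one side of the 3 MC-F7 values, which 40% of all tested genes showed.

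**Figure D1:**
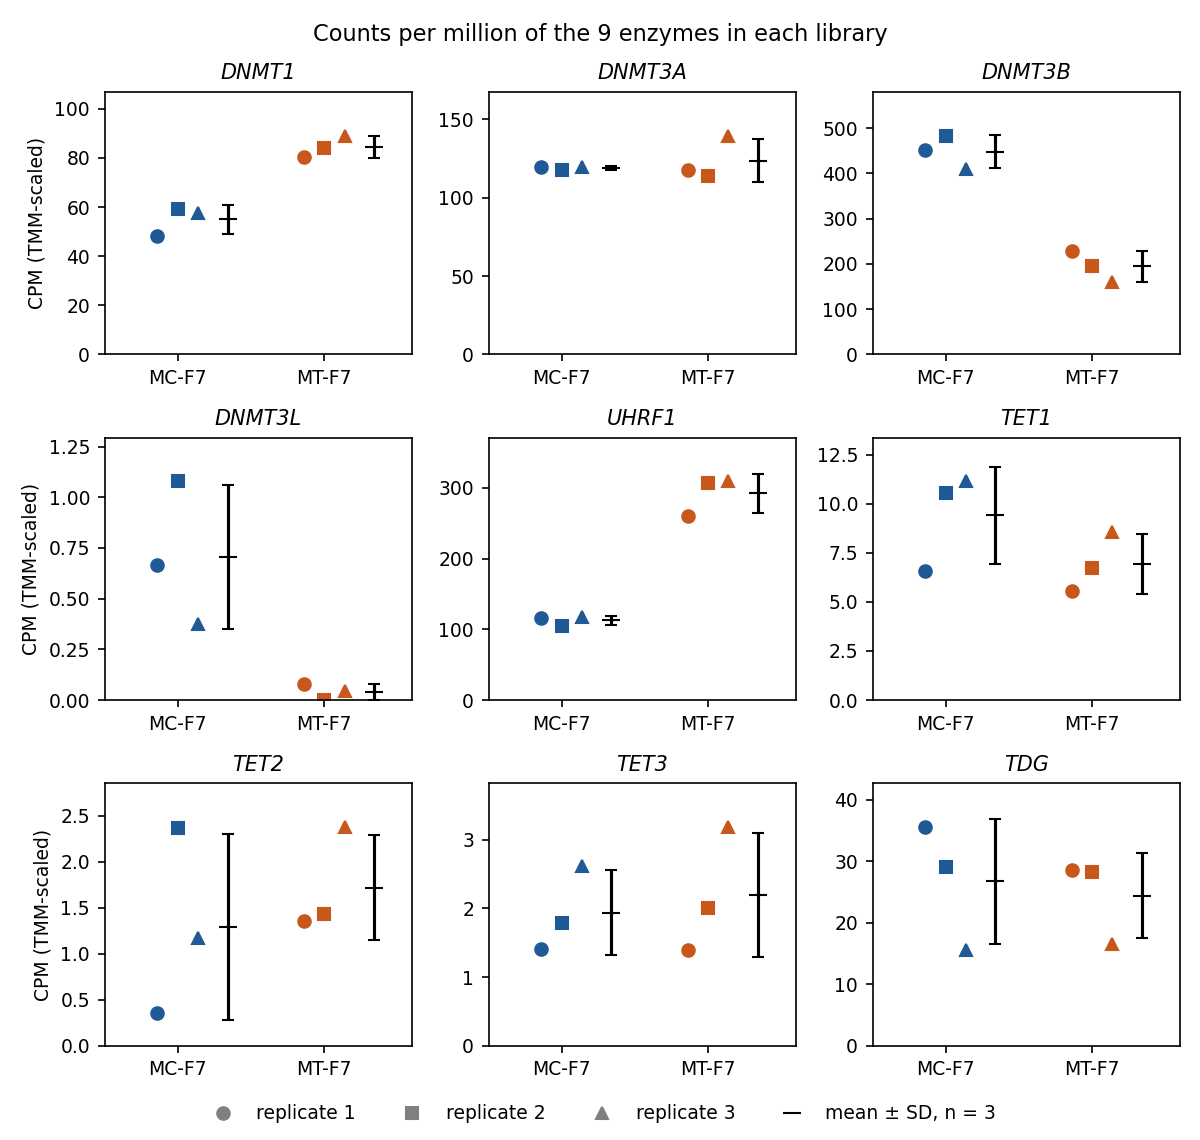
Each panel plots CPM (TMM-scaled, linear axis from 0) of 1 gene in the 3 MC-F7 libraries (blue) and the 3 MT-F7 libraries (orange), with the replicate number as the marker shape and the mean ± SD in black. UHRF1, DNMT1, DNMT3B and DNMT3L separate the groups, while DNMT3A, the TET genes and TDG overlap.

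UHRF1 (Entrez gene 530411), a ubiquitin ligase that binds hemimethylated DNA, had the largest increase of the set. Its expression was 116, 105 and 117 CPM in MC-F7 and 260.0, 307 and 309 CPM in MT-F7. The lowest MT-F7 library was thus far above the highest MC-F7 library, and at least 2496 counts lay behind every value. The mean rose from 113 ± 6.48 to 292 ± 27.9 CPM (SD, n = 3), and the log2 fold change was 1.37 (standard error 0.149, edgeR adjusted p = 3.6e-05, 95% interval 1.05 to 1.70).

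DNMT1 (281119), the maintenance methyltransferase, was also raised, by less. It had 48.3, 59.0 and 57.6 CPM in MC-F7 and 80.3, 84.0 and 89.0 CPM in MT-F7, from 1091 to 2174 counts and without overlap. The mean rose from 55.0 ± 5.84 to 84.4 ± 4.40 CPM (SD, n = 3), and the log2 fold change was 0.62 (standard error 0.147, edgeR adjusted p = 0.0086). Its 95% interval was 0.30 to 0.94, which is 1.23- to 1.92-fold and lies below the interval of UHRF1. Leaving out any 1 library kept DNMT1 past the threshold, with log2 fold changes from 0.53 to 0.67 and edgeR adjusted p from 0.013 to 0.035. Beside these increases, 4 of 11 tested fibroblast markers (36.4%) also rose, against 11.9% of all tested genes. They were COL3A1, POSTN, PDGFRB and COL5A1, with log2 fold changes of 1.65, 1.24, 0.93 and 0.79. The other 7 were not called, and COL6A3 (-0.37) and THY1 (-0.32) among them were below 0. The part of the fibroblast markers in the result was not tested.

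DNMT3B (353354), a de novo methyltransferase, fell in MT-F7. Its expression was 452, 483 and 409 CPM in MC-F7 and 228, 195 and 161 CPM in MT-F7. The groups were far apart, and replicate 3 was the lowest library of each, while 3783 counts or more lay behind every value. The mean fell from 448 ± 37.2 to 195 ± 33.9 CPM (SD, n = 3), which is 0.434 times that of MC-F7, and the log2 fold change was -1.20 (standard error 0.168, edgeR adjusted p = 2.5e-04, 95% interval -1.57 to -0.84). Leaving out any 1 library did not change the call, with log2 fold changes from -1.34 to -1.09. Of 7 tested pluripotency factors 5 (71.4%) were lower in the same libraries, against 11.3% of all tested genes. Their log2 fold changes were -3.22 for DPPA4, -2.65 for TDGF1, -2.02 for NANOG, -1.19 for POU5F1 and -0.85 for LIN28A. The other 2, SALL4 and PRDM14, were not called and had log2 fold changes above 0 (0.33 and 0.15). Whether DNMT3B moved with the share of pluripotent cells was not tested.

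DNMT3A (359716), the other de novo methyltransferase, had the log2 fold change nearest to 0. It had 120, 118 and 120 CPM in MC-F7 and 117, 114 and 140 CPM in MT-F7, so the groups overlapped and replicate 3 of MT-F7 was the highest library. It was 0.056 (standard error 0.145, edgeR adjusted p = 0.82), with an interval of 0.837- to 1.29-fold. A change of the size seen in DNMT3B is outside this interval. DNMT3A and DNMT3B are related in sequence, and how reads that match both were counted is not given in the sources used here. The paper, by contrast, reports significantly higher DNMT3A in MT-F7, both by RT-PCR and as a primed marker in its RNA-seq.

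DNMT3L (613785), the partner of the de novo enzymes, was near the detection limit. Its counts were 15, 26 and 8 (MC-F7) and 2, 0 and 1 (MT-F7), which is 0.664, 1.08 and 0.374 CPM against 0.0797, 0 and 0.0425 CPM. The MT-F7 libraries were all below 3 counts, the smallest amount taken as detected, which is a mean of 0.121 CPM over these libraries. The MC-F7 mean was 5.83 times this limit, and 4.29 to 7.20 times when 1 MC-F7 library was left out. The low MC-F7 counts were taken as exact here, so this ratio is not a lower bound on the change. DNMT3L did not pass the filter on low counts. In the fit of all 16223 genes with at least 1 count, 19.2% of genes were called. For DNMT3L the estimate there was -3.96 on the log2 scale, with 0.94 as its standard error. The edgeR adjusted p of DNMT3L was 0.0049, and without replicate 2 of MC-F7 it was 0.054.

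**Figure D2:**
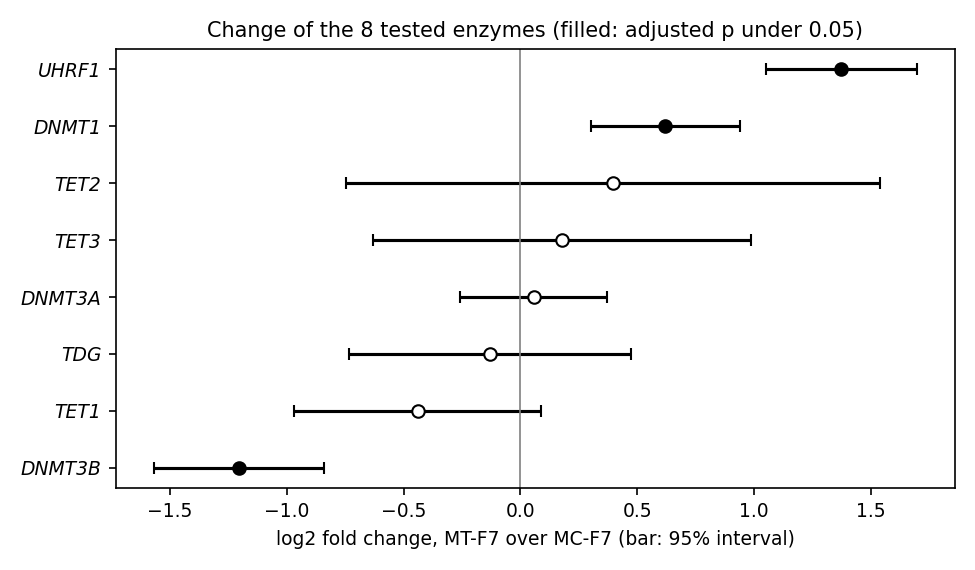
The log2 fold change of MT-F7 over MC-F7 (horizontal axis) is plotted for the 8 tested genes with its 95% interval, filled where the adjusted p was under 0.05. UHRF1 and DNMT1 lie above 0 and DNMT3B lies below it, and the intervals of the other 5 genes cross 0.

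TET1 (513640) was the most expressed of the TET dioxygenases. Its expression was 6.59, 10.5 and 11.1 CPM in MC-F7 and 5.54, 6.72 and 8.58 CPM in MT-F7. The groups overlapped because replicate 1 of MC-F7 was as low as the MT-F7 libraries. The log2 fold change was -0.44 (standard error 0.244, edgeR adjusted p = 0.22), and its 95% interval of 0.511- to 1.06-fold was mostly below 1 but included it. The fits that left out 1 library gave log2 fold changes from -0.64 to -0.31, none of which passed.

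TET2 (538481) and TET3 (101904937) were low, and their groups overlapped. The counts were 8, 57 and 25 (MC-F7) and 34, 37 and 56 (MT-F7) for TET2, and 32, 43 and 56 (MC-F7) and 35, 52 and 75 (MT-F7) for TET3. The log2 fold changes were 0.40 (standard error 0.528, edgeR adjusted p = 0.63) for TET2 and 0.18 (standard error 0.374, edgeR adjusted p = 0.77) for TET3. Within MC-F7 alone TET2 ranged from 0.354 to 2.36 CPM, a coefficient of variation of 78.0%, against 33.2% in MT-F7. The 95% intervals were 0.596- to 2.91-fold for TET2 and 0.646- to 1.98-fold for TET3, so that for either gene a rise and a fall both lay within the interval. The paper lists TET2 among the genes up-regulated in MT-F7 in its RNA-seq.

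TDG (517825), the glycosylase that removes oxidised methylcytosine, spread more within each group than between them. It had 35.5, 29.0 and 15.6 CPM in MC-F7 and 28.6, 28.2 and 16.5 CPM in MT-F7. Replicate 3 was the lowest library of both groups, at about the same level in each. These were also the libraries with the highest share of mitochondrial counts, and the part of that share in the TDG values was not tested. The log2 fold change between the groups was -0.13 (standard error 0.279, edgeR adjusted p = 0.78), and it was above 0 without replicate 1 of MC-F7 (0.13) and without replicate 3 of MT-F7 (0.084).

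Levels of different genes were compared on a per-length scale, the deposited TPM values after each library was rescaled to 1000000. On this scale DNMT3B was the highest of the 9 genes in MC-F7, at 155 ± 18.8, followed by UHRF1 at 37.8 ± 0.971, DNMT3A at 14.3 ± 0.437, DNMT1 at 13.1 ± 1.62 and TDG at 10.9 ± 4.28 (SD, n = 3). The libraries of DNMT3A, DNMT1 and TDG overlapped, so their order is not set. TET1 followed at 1.92 ± 0.508, and DNMT3L (0.691 ± 0.372), TET3 (0.384 ± 0.112) and TET2 (0.243 ± 0.198) came last, with overlap between neighbours. In MT-F7 the order of the first pair was the other way round, since UHRF1 was at 103 ± 10.2 and DNMT3B at 71.5 ± 14.5 rescaled TPM, and every library of UHRF1 was above every library of DNMT3B. DNMT1 (21.2 ± 0.794) was then above DNMT3A (15.7 ± 1.03) in all libraries, and DNMT3L was the lowest of the 9 genes. In CPM, which takes no account of length, DNMT3A (117, 114 and 140) was above DNMT1 (80.3, 84.0 and 89.0) in MT-F7. The order on the per-length scale thus rests on the gene lengths behind the deposited values, which were not compared with an annotation.

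The summed rescaled TPM of the 4 DNMT genes was 182, 205 and 164 for the MC-F7 libraries, against 120, 111 and 94.0 for those of MT-F7. All MT-F7 libraries were below all MC-F7 libraries, and the smaller sum lay in DNMT3B. DNMT3B made up 83.3% to 85.5% of this sum in MC-F7 and 59.4% to 70.4% in MT-F7. The share of DNMT1 was 6.26% to 8.04% in MC-F7 and 16.98% to 22.6% in MT-F7, and that of DNMT3A was 7.19% to 8.44% and 12.6% to 17.9%. Within the TET genes, TET1 made up 73.0% to 79.4% of the summed rescaled TPM in MC-F7 and 61.9% to 68.1% in MT-F7, but the sums themselves overlapped, with 1.68 to 3.06 in MC-F7 and 1.77 to 2.83 in MT-F7. The size of all these shares rests on the same unchecked gene lengths.

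**Figure D3:**
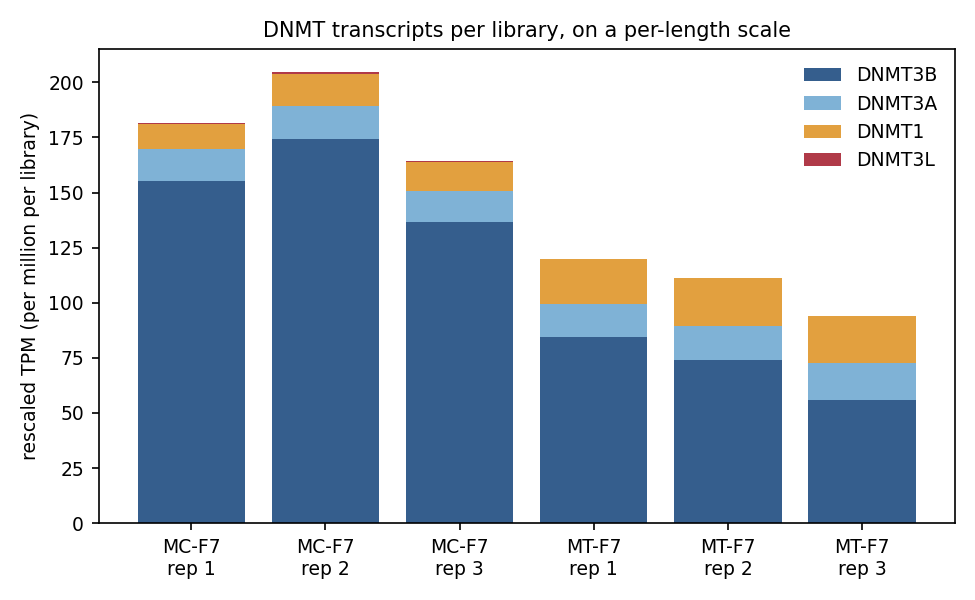
Bars show the rescaled TPM of the 4 DNMT genes stacked for each of the 6 libraries (linear axis from 0). The MT-F7 bars are shorter than the MC-F7 bars through a smaller DNMT3B part, while the DNMT1 part is larger, and the DNMT3L part is barely visible in any library.

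Ratios of 2 genes within a library depend neither on library size nor on normalization factors, and 7 pairs were compared. With 3 libraries a group the smallest p of an exact two-sided permutation test is 0.1, so no ratio could pass. The DNMT3B counts were 9.37, 8.19 and 7.11 times the DNMT1 counts in MC-F7 and 2.85, 2.32 and 1.80 times in MT-F7. The groups were well separated, and the mean ratio was 3.58-fold lower in MT-F7 (exact p = 0.1, adjusted p = 0.175 over the 7 pairs). Between the de novo enzymes the ratio of DNMT3B to DNMT3A was 3.78, 4.11 and 3.42 in MC-F7, against 1.94, 1.71 and 1.15 in MT-F7. It did not overlap either and was 2.40-fold lower in MT-F7.

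The ratio of DNMT1 to UHRF1 was 0.414, 0.560 and 0.493 (MC-F7) and 0.309, 0.273 and 0.288 (MT-F7), so that the enzyme was lower relative to its partner in every MT-F7 library. The ratio of TET1 to TET3 was 4.66, 5.91 and 4.25 in MC-F7, against 3.97, 3.35 and 2.69 in MT-F7, also without overlap. The gap between 4.25 and 3.97 was narrow, TET3 had only 56 and 35 counts in these libraries, and neither gene was called. DNMT1 to UHRF1 and TET1 to TET3 each had the smallest possible exact p of 0.1, with 0.175 after adjustment. The pairs TET1 to TET2, TET2 to TET3 and DNMT3B to TET1 overlapped between the groups (exact p = 0.2, 0.5 and 0.2).

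**Figure D4:**
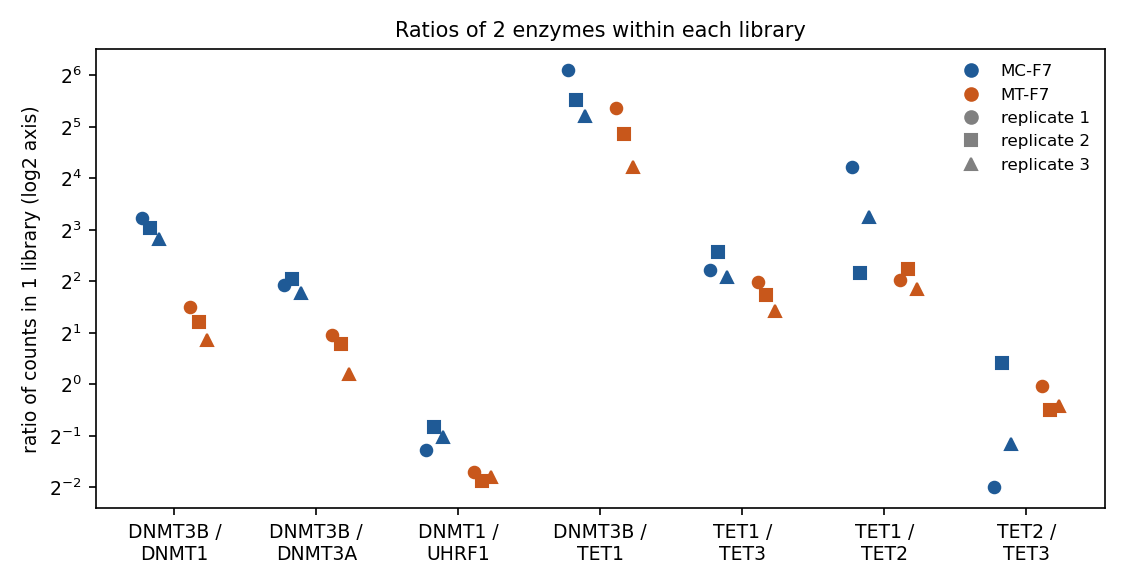
The ratio of the counts of 2 genes in the same library is plotted on a log2 axis for 7 pairs, MC-F7 in blue and MT-F7 in orange, with the replicate number as the marker shape. The groups are separate for DNMT3B/DNMT1, DNMT3B/DNMT3A, DNMT1/UHRF1 and, by a narrow gap, TET1/TET3, and overlap for the other 3 pairs.

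The partners of these enzymes were examined in lists, each read against the 23.2% of all tested genes that were called and their median log2 fold change of -0.0026. Among 13 partners of maintenance methylation 12 were tested, with a median of -0.096, and 2 of them (16.7%) were called, both lower. These were HELLS, a chromatin remodeler needed for DNA methylation, and CDCA7, which recruits HELLS to chromatin. HELLS fell from 229 ± 2.65 to 123 ± 17.4 CPM (log2 fold change -0.90, standard error 0.154, edgeR adjusted p = 0.0011). CDCA7 fell from 46.2 ± 0.805 to 27.1 ± 2.53 CPM (log2 fold change -0.77, standard error 0.148, edgeR adjusted p = 0.0025).

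HELLS and CDCA7 are known, with DNMT3B and ZBTB24, as the genes of the human ICF immunodeficiency syndrome, in which satellite repeats lose methylation. DNMT3B, HELLS and CDCA7 were lower in MT-F7 without overlap, and 40% of all tested genes had no overlap in either direction. The genes of this syndrome were not a list of their own. HELLS and CDCA7 were grouped with DNMT3B after their falls were seen. Their shared direction was thus selected from the same data, and the syndrome's genes were not tested as a set. ZBTB24, named after its value was seen, had 16.4 ± 1.26 CPM in MC-F7 and 15.7 ± 2.08 CPM in MT-F7 (edgeR adjusted p = 0.83). Chosen in the same way, UHRF2, the paralog of UHRF1, had 26.9 ± 9.71 CPM in MC-F7 and 17.96 ± 3.78 CPM in MT-F7 (log2 fold change -0.58, edgeR adjusted p = 0.11). DPPA3, also named after its counts were seen and known to keep UHRF1 from chromatin, was too low to be tested, with counts of 5, 11 and 1 (MC-F7) and 0, 7 and 6 (MT-F7).

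DNMT1 and UHRF1 are known to be expressed with DNA replication, so 18 replication and S phase genes were listed beside them. All 18 were tested, with a median log2 fold change of 0.035, and 2 (11.1%) were called. CCNE2, a cyclin of the entry into S phase, rose by a log2 fold change of 0.76, and GINS2, a subunit of the replicative helicase complex, fell by 0.49 on the log2 scale. The summed expression of the list was between 3862 and 4324 CPM in MC-F7 and between 3908 and 4149 CPM in MT-F7, so its range in MT-F7 lay within that of MC-F7. PCNA, the replication clamp that binds DNMT1, named after its value was seen, had 284 ± 57.5 and 320 ± 73.7 CPM (edgeR adjusted p = 0.59).

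Among 13 genes around de novo methylation 12 were tested, with a median of -0.11, and 2 (16.7%) were called. NSD2, which places the histone H3 lysine 36 dimethylation that DNMT3A reads, rose from 149 ± 25.5 to 233 ± 65.9 CPM (log2 fold change 0.64, edgeR adjusted p = 0.037). DPPA4, a DNA-binding partner of DPPA2, had counts of 37, 45 and 32 (MC-F7) and 4, 5 and 4 (MT-F7), the largest fall in the partner lists. DPPA2 itself, named after its counts were seen, had 5 counts in 1 MC-F7 library and none elsewhere.

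All 10 genes of proteins that bind methylated DNA or belong to their families were tested, with a median log2 fold change of 0.28, and 2 (20%) were called, both higher. MBD1, a repressor that binds methylated CpG, rose from 33.6 ± 3.53 to 55.5 ± 8.16 CPM. MBD5 rose from 2.90 ± 0.418 to 5.96 ± 0.343 CPM, with log2 fold changes of 0.72 for MBD1 and 1.04 for MBD5.

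Downstream of the TET enzymes, 17 of 19 genes of demethylation and base excision repair were tested and 3 (17.6%) were called, with a median of -0.0029. The repair scaffold XRCC1 rose from 77.5 ± 5.65 to 115 ± 10.02 CPM. The stress-induced gene GADD45B fell by 0.85 and the glycosylase NEIL3 by 0.55 on the log2 scale. Of the genes that supply the methyl donor and the TET cofactor alpha-ketoglutarate, 14 of 15 were tested, with a median of -0.14, and 2 (14.3%) were called, both lower. Among them was GNMT, which uses up the methyl donor, at 4.98 ± 1.39 CPM in MC-F7 and 2.65 ± 0.501 CPM in MT-F7.

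**Figure D5:**
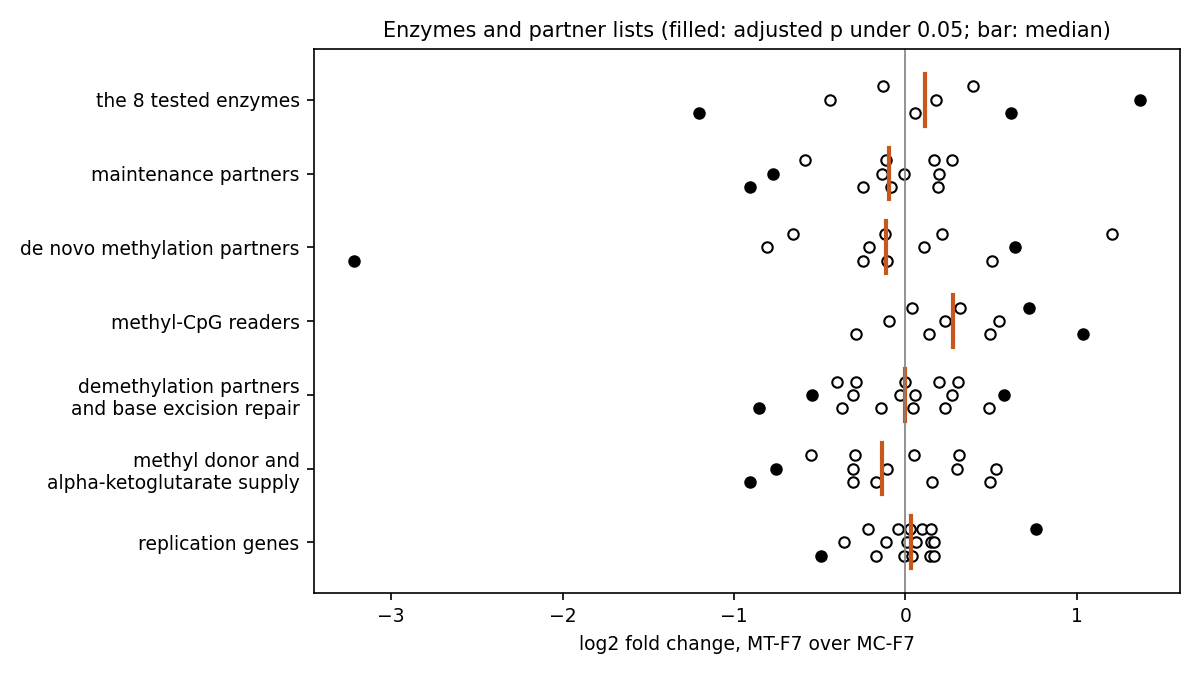
Each point is the log2 fold change of MT-F7 over MC-F7 of 1 tested gene, in rows for the 8 tested enzymes and 6 partner lists, filled where the adjusted p was under 0.05, with the list's median as an orange bar. All list medians lie between -0.14 and 0.28, and UHRF1 at 1.37 is to the right of every gene in the partner lists.

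For each tested enzyme the 2 most similar genes were sought among 13000 others, by the root mean square difference of log2(CPM + 0.5) values centred over the 6 libraries. For DNMT3B these were RIOX1 (0.048) and RHEBL1 (0.072), for UHRF1 CHN2 (0.070) and SMARCD3 (0.070), and for DNMT1 SPTAN1 (0.041) and STPG1 (0.046). As the smallest of 13000 distances these are small by the way they were chosen, and the added 0.5 shrinks the differences of low genes. CHN2, at 0.223 CPM in MC-F7 and 1.36 CPM in MT-F7, had a log2 fold change of 2.59, well above the 1.37 of UHRF1, while that of SMARCD3 was 1.46. For TDG, with its low replicate 3 in both groups, they were BTF3 (0.061) and PSMA4 (0.076), and for DNMT3A MAD2L1BP (0.034) and BAHD1 (0.040). TET1 was nearest to NCOA7 (0.074) and MASTL (0.082), and TET3 to MYBPC3 (0.071) and KCNAB3 (0.082), while no gene was as near to TET2, whose nearest were HHAT (0.189) and TMTC2 (0.223).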

How the data were processed

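The authors used HISAT2 2.0.5 to align 150 bp paired-end reads to a bovine genome from Ensembl, counted them with featureCounts 1.5.0-p3, and deposited raw counts per Entrez gene for 6 libraries. The genome build and the strand setting are not given in the sources used here, so no coordinates are printed and overlapping antisense transcripts cannot be told apart. The authors also deposited a table that they call TPM (21653 lines, 21261 genes used). Its columns add up to 154442 to 163945 and keep library size, and its per-gene lengths were not compared with an annotation. Symbols were taken from the RefSeq table of ARS-UCD2.0 by Entrez ID, and 89 IDs had none.

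The 13001 genes that passed filterByExpr (minimum count 10, minimum total 15) were scaled by TMM (factors 0.971 to 1.04) and compared by edgeR 4.0.16's two-sided quasi-likelihood test in R 4.3.3, with Benjamini-Hochberg adjustment over all tested genes and a threshold of 0.05. CPM values are TMM-scaled, and fold changes are MT-F7 over MC-F7. The steps were tested on simulated data. Alternatives were RLE factors, library size alone, DESeq2 1.42.0, 2 other filters, a replicate block, leaving out 1 library at a time, limma 3.58.1 on log2(TPM + 1), on log2(TPM + 0.1) and on genes with a mean of at least 1, and removal of 13 mitochondrial genes. TPM rescaled to 1000000 and the DNMT3L fits were added after seeing the data.

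The genes, lists and tests were chosen with earlier results of these data known. The genes named from a list are its called members with a mean of at least 1 CPM, at most 4 by size of change, all cell type markers being open to naming, and others are marked as named after their values were seen. CXXC4 was not analysed here. Some genes of the lists are not reported here by name. A planned search of promoters for motifs was not made, because no promoter sequence was used here.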

Additional observations from a re-analysis of the deposited data

How the results depend on the processing

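DNMT1, UHRF1 and DNMT3B kept their direction and passed in all 11 other settings and in all 6 fits that left out 1 library, and the count of enzymes called was 3 or 4 throughout, the fourth being DNMT3L. DNMT3L entered without being called by limma on log2(TPM + 1). Where it was tested with 1 library left out, DNMT3L passed the filter through its MC-F7 counts alone, so those calls add no support. The count of all genes called moved more. It was 3016 of 13001 tested genes in the test reported and 4674 of 13001 with the replicate number as a block. By limma on log2(TPM + 1) with a mean of at least 1 it was 1395, of only 7397 tested genes. When 1 library was left out it was 1914 to 3093, lowest without replicate 2 of MC-F7. Directions turned only in genes that never passed. TDG was above 0 by limma on log2(TPM + 1) with and without the limit on the mean (0.014 in both) and on log2(TPM + 0.1) (0.035). Over the fits that left out 1 library the log2 fold change was -0.40 to 0.13 for TDG, -0.047 to 0.12 for DNMT3A, -0.049 to 1.18 for TET2 and -0.19 to 0.44 for TET3, and the causes were not tested. TET2 could not be tested with at least 10 counts in every library, nor any TET gene in limma with a mean of at least 1. DNMT3L in the fit of all genes passed in 5 of 6 such fits, with edgeR adjusted p from 0.0014 to 0.054. Deviations of libraries with the same number had correlations across genes of 0.167, 0.0707 and 0.505, and 2 of 6 libraries, both of replicate 3, were most alike to their own number. The numbers were not taken as pairs in the test reported. Whether libraries of the same number shared a batch was not tested. The replicate block changed no call among the enzymes.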

Other observations

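Germline genes that are known to be silenced by promoter methylation were listed as a readout of these enzymes. Of 14 such genes 11 were in the count table and 2 had enough counts to be tested, and these moved in opposite directions. SYCP3, a protein of the meiotic chromosome axis, had counts of 54, 94 and 60 (MC-F7) and 14, 21 and 9 (MT-F7) (log2 fold change -2.36, standard error 0.386, edgeR adjusted p = 8.0e-04). MAEL, of the piRNA pathway, named after its value was seen, had counts of 7, 6 and 7 (MC-F7) and 30, 25 and 43 (MT-F7) (log2 fold change 2.15, standard error 0.473, edgeR adjusted p = 0.0056). DAZL and DDX4, which mark germ cells and were also named after their counts were seen, had at most 3 counts in any library, and the summed list was between 2.88 and 4.68 CPM in MC-F7 and between 2.27 and 2.89 CPM in MT-F7. DNA methylation was not measured in these samples.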
